A study of Mus musculus with 2 samples.

Results

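The aminoacyl-tRNA synthetases were examined in fetal mouse lung: 36 listed genes, of which 35 had at least 1 probe set that the platform annotation assigned to them alone (72 probe sets of 45101 on the array). The members were taken by gene name and not by measured value, although earlier results of these data were known when they were chosen. Dars, for aspartate, had no such probe set. Each gene was read by its brightest probe set and counted as measured when its mean signal over both arrays reached a floor of 49.3, the 40th percentile of all signals. By that rule 32 synthetase genes were measured, of 12600 measured genes in all: 19 of 20 cytosolic enzymes and 13 of 16 mitochondrial ones, whose names end in 2.

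Total RNA came from whole lungs at embryonic day 18, shortly before birth. The study compared 1 Affymetrix array of wildtype lungs with 1 array of lungs homozygous for Nmyc9a, a hypomorphic allele of Mycn, and each sample was a pool of lungs. Mycn encodes N-Myc, a transcription factor that drives growth of the distal lung epithelium. The allele is carried in every cell of the animal, while the sources used here give neither strain, sex nor the number of lungs pooled. With 1 array a group there is no replicate check, no value has an error from animals, and no test was run. The number of arrays limits the precision. The only error that could be measured was how far probe sets of 1 gene disagreed: their log2 ratios had a pooled SD of 0.40 (1.32-fold), from 5671 genes. In bulk RNA, fewer cells of a type and less RNA per cell cannot be told apart.

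Each synthetase joins 1 amino acid to its matching tRNAs, the step that fixes the genetic code. The cytosol and the mitochondrion run separate translation systems, so most amino acids have a cytosolic enzyme and a separate nuclear-encoded mitochondrial one. Several cytosolic enzymes sit together in the multi-synthetase complex, held by the scaffold proteins Aimp1, Aimp2 and Eef1e1. Many cytosolic synthetase genes are targets of Atf4, the transcription factor of the amino acid response, and synthetases have also been described among genes that respond to Myc proteins.

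Mycn itself, by its brightest probe set, read 66.3 in wildtype lungs and 84.8 in Nmyc9a lungs, and by a second measured one 51.1 and 85.4. These signals did not show a decrease, and it is unknown here whether the probes match the stretch that the allele alters. The array is therefore called the array labelled Nmyc9a, and every direction below rests on that label. The tissue label was matched by defining markers of distal lung epithelium: of 10 listed genes 9 were measured, and the surfactant protein gene Sftpc read 8639 and 8964. Ratios are log2 of the array labelled Nmyc9a over wildtype, after scaling that array by 0.977. Pairs of signals give wildtype first.

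In the array labelled Nmyc9a most cytosolic synthetase transcripts were lower, mainly those with brighter signals, and mitochondrial ones lay around 0. Of 19 measured cytosolic enzymes 16 had a ratio below 0, against 6 of 13 mitochondrial enzymes and 58.8% of all measured genes. The cytosolic median log2 ratio was -0.41, the mitochondrial median 0.04 and the median of all measured genes -0.09. The compartments differed by -0.44, but by -0.23 after loess on signal. With only the 6 cytosolic enzymes inside the mitochondrial signal range they differed by -0.12. At a size of 1.5-fold, 5 cytosolic and 2 mitochondrial enzymes were lower, 7 of 32 (21.9%), while 9.71% of all measured genes were 1.5-fold lower. The count of higher enzymes was 2 of 32 (6.25%), near the background of 6.32%. By its brightest probe set no synthetase reached 2-fold either way with the floor at 49.3. At that size 1.38% of measured genes were lower and 1.29% higher. With the floor at the 20th percentile Rars (-1.002) and Vars2 (-1.106) did, and without a floor Vars2 did, at -1.065. The mitochondrial median was below 0 after quantile normalization (-0.084) or loess on signal (-0.060), with a lower floor at the 20th percentile (-0.024) and without probe sets that may bind several transcripts (-0.12).

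**Figure D1:**
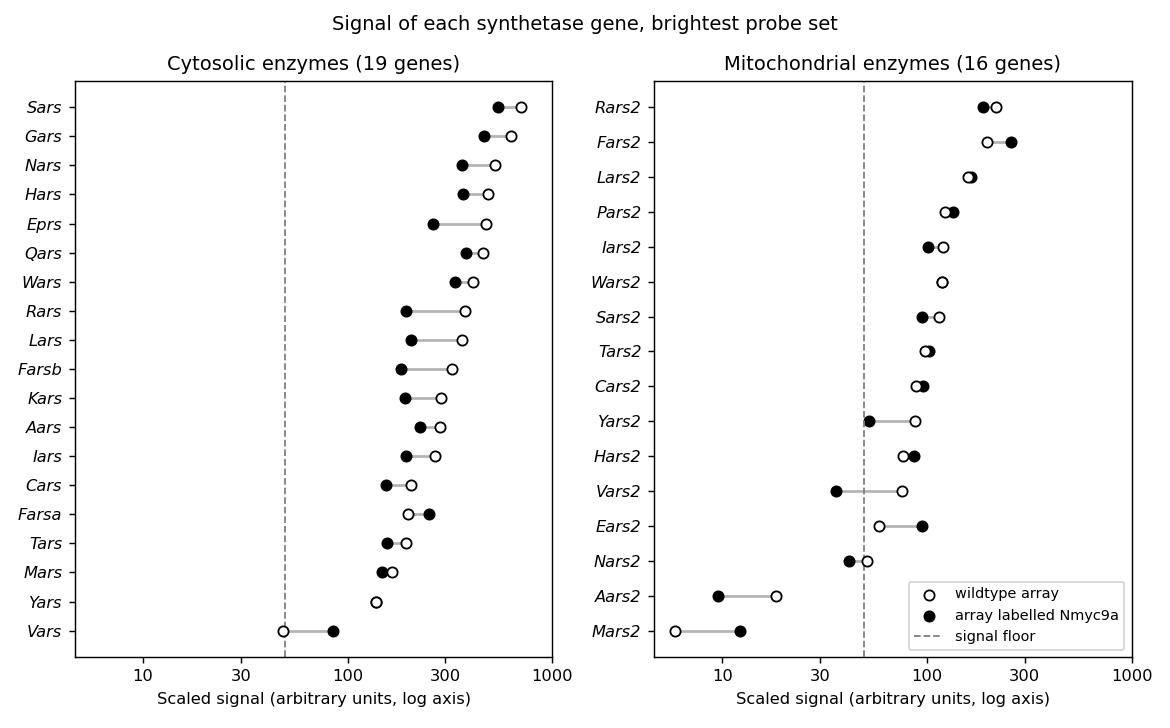
Scaled signal (log axis, arbitrary units) of the brightest probe set of each synthetase gene on the wildtype array (open circles) and the array labelled Nmyc9a (filled circles), joined by a line, with the floor of 49.3 dashed. Filled circles lie left of open ones for 16 of 19 cytosolic genes, while the 16 mitochondrial genes go both ways and 3 of them have a mean signal below the floor.

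The enzymes of the multi-synthetase complex held 4 of the 5 cytosolic genes that were 1.5-fold lower. These were 4 of its 7 measured enzymes, while 9.71% of all measured genes were 1.5-fold lower. Rars, which charges arginine tRNA, read 376 and 193, the lowest ratio of any measured synthetase at -0.96 (1.95-fold lower). Eprs, a fused enzyme for glutamate and proline, read 475 and 262 by its brightest probe set, 1.81-fold lower. That probe set is of a kind (names ending in _s_at, _x_at or _a_at) that can bind several transcripts. The other measured probe sets of Eprs stood at -0.44 and -0.06, so its size depended on the probe set. Lars, the leucine enzyme, read 363 and 204, 1.78-fold lower. Kars, the lysine enzyme that also serves mitochondria, read 285 and 190, at the 1.5-fold limit with a ratio of -0.59. Rars, Lars and Kars each had 1 probe set, so no second reading of them was available.

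The remaining measured enzymes of the complex were lower by less. Iars, for isoleucine, read 268 and 194 (-0.47), and its second probe set stood at -0.39. Qars, for glutamine, read 457 and 377 (-0.28), and its other measured probe sets stood at -0.34 and -0.14. Mars, for methionine, read 165 and 146 (-0.18). All 7 measured enzymes of the complex were therefore below 0, as were 58.8% of all measured genes. Their median of -0.59 is the value of Kars. With the median of the probe sets of each gene the middle value was that of Eprs, -0.44. All but Mars lay above the mitochondrial signal range, where all 13 cytosolic enzymes were below 0 with a median of -0.47. Whether the lower ratios follow the complex or the signal was not tested.

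The scaffold proteins lay on the same side. Eef1e1, which also carries the name of an elongation factor subunit, read 247 and 134, 1.84-fold lower. Aimp1 read 521.5 and 347 (-0.59) and Aimp2 read 269 and 216 (-0.32). The scaffold genes thus counted 2 of 3 at least 1.5-fold lower, beside 9.71% of all measured genes, with a median of -0.59. Aimp1 passed by little, at 1.504-fold: the median was -0.55 as deposited, -0.49 after quantile normalization, -0.45 after loess, -0.52 under the higher floor (60th percentile) and -0.57 with a pseudocount, all short of 1.5-fold.

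Outside the complex the median over 12 cytosolic genes was -0.35, and 1 gene (8.33%) passed 1.5-fold in each direction. These shares lay near the background of 9.71% lower and 6.32% higher. The lower gene was Farsb, the beta subunit of phenylalanine tRNA synthetase, at 321 and 182 (1.77-fold lower). Its other measured probe sets stood at -0.99 and -0.59, so all its readings passed 1.5-fold, although all 3 are of the kinds that can bind several transcripts. Farsa, the alpha subunit of the same enzyme, read 197 and 250, a ratio of 0.34, and its other measured probe sets stood at 0.16, 0.10 and 1.02. The last of these is a bound, its wildtype signal being under the floor. The subunits of this single enzyme therefore lay on opposite sides of 0 in every measured probe set.

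Most of the brightest synthetase genes lay between the background median and the 1.5-fold limit. Sars, the serine enzyme and the brightest member, read 702.5 and 541 (-0.38), and its second probe set stood at -0.65. Gars, for glycine, which also serves mitochondria, read 625.5 and 463 (-0.43). Nars, for asparagine, read 524 and 360 (-0.54), but -0.14 by its second probe set. These bright genes were all lower, by amounts of the order of the probe set SD.

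Hars, for histidine, read 487 and 364 (-0.42), with a second probe set at -0.70. Cars, for cysteine, read 203 and 153 (-0.41). Tars, for threonine, read 193.5 and 155 (-0.32). Aars, for alanine, read 281.5 and 226, and its probe sets gave -0.32 and -0.33.

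Wars, the tryptophan enzyme and a target of interferon gamma in many cells, read 407 and 335 (-0.28), and its 4 measured probe sets ranged from -0.49 to -0.01. Yars, for tyrosine, was level at 137 and 138. Vars, for valine, was the one cytosolic gene that was higher at 1.5-fold. Its signals were dim, at 48.3 and 84.4, and since the wildtype signal lay below the floor it was at least 1.71-fold higher. A second measured probe set existed for 10 cytosolic genes: in 9 every probe set was lower, and in Farsa every probe set was higher. Over all 36 measured cytosolic probe sets, 30 were below 0, with a median of -0.36.

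Counts were also taken by catalytic class and by listing as an Atf4 target. Class I enzymes had 2 of 9 genes 1.5-fold lower and a median of -0.28, and class II enzymes 2 of 9 and -0.42, with Eprs, which joins both classes, left out. Of 11 cytosolic genes listed as amino acid response targets 1 was 1.5-fold lower (median -0.38), against 4 of the other 8 (median -0.50). The share over all measured genes was 9.71%. The 1 target is Eprs, whose size depended on the probe set, and the 4 include Kars, at the 1.5-fold limit. None of these differences was tested, since genes are not replicates.

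The mitochondrial enzymes spread to both sides of 0. Yars2, for tyrosine, read 87.4 and 52.3 (1.67-fold lower). Vars2, for valine, read 75.2 and 35.95 and was at least 1.53-fold lower, with the second signal below the floor. Ears2, for glutamate, read 58.5 and 94.5 (1.62-fold higher), and its second measured probe set stood at 0.30. Ears2 was 1.5-fold higher in 4 of 10 alternatives of scaling, floor and probe set, with ratios from 0.30 to 0.73. The genes past 1.5-fold were thus all dim, below 100 on both arrays.

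Sars2, for serine, read 114.5 and 94.5 (-0.28). Iars2, for isoleucine, read 119 and 101 (-0.24). Rars2, for arginine, read 218 and 188 (-0.22). These were the next lowest mitochondrial genes, and each difference was smaller than the probe set SD of 0.40.

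Fars2, the single-chain mitochondrial phenylalanine enzyme, read 196 and 257 (0.39), the highest mitochondrial ratio after Ears2. Hars2, for histidine, read 76.4 and 86.0 (0.17). Pars2, for proline, read 123 and 133 (0.12). Each of these is a mitochondrial enzyme with a ratio above 0 but under 1.5-fold.

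Near 0 lay Tars2 at 0.07 and Lars2 at 0.04, for threonine and leucine. Wars2 read 119 on both arrays by its brightest probe set and stood at 0.34 by the other. Cars2 read 88.5 and 95.7 (0.11), with other probe sets at -0.12 and -0.28. Nars2 read 50.8 and 41.7 and was not counted as measured, nor were Aars2 (18.3 and 9.57) and Mars2 (5.9 and 12.2). Only Cars2, Ears2 and Wars2 had 2 or more measured probe sets, and in none of these 3 were they all lower.

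For 11 amino acids both a cytosolic and a mitochondrial enzyme with a single counterpart were measured, counting Eprs with Ears2. The cytosolic ratio was the lower one in 9 of these 11 pairs, with a median difference of -0.39. In every pair the cytosolic gene also had the brighter signal, so the pairs cannot tell compartment from signal. The gap was -0.87 between Lars and Lars2 and -0.74 between Rars and Rars2. Between Eprs and Ears2 it was -1.55, but it rests on _s_at probe sets: without such probe sets Eprs stood at -0.062 and Ears2 at 0.30. The tyrosine pair went the other way, Yars minus Yars2 standing at 0.75. So did the valine pair at 1.39, in which both genes were dim and both ratios are bounds. Hars and Hars2, which are neighbouring genes in the RefSeq annotation, stood at -0.42 and 0.17.

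The probe sets of cytosolic enzymes also gave the brighter signals, with a median of 254 against 104 for the mitochondrial enzymes. Signal depends on the probe as well as on the RNA, so it is used here as a technical measure and not as a level. Brighter genes had lower ratios on these arrays as a whole: across all 12600 measured genes the Pearson correlation of log2 signal with log2 ratio was -0.20, and across the 32 synthetases it was -0.46. These are correlations across genes of the same 2 arrays, and genes are not independent replicates. Of the 19 cytosolic enzymes 13 lay above the mitochondrial signal range. All 13 were below 0, 5 were 1.5-fold lower, and the median was -0.47. Measured genes of that signal range had a median of -0.15, and 11% of them were 1.5-fold lower and 3.63% higher. The 6 cytosolic enzymes inside the mitochondrial signal range had a median of -0.083, with 3 below 0 and none 1.5-fold lower, against -0.018 for all measured genes of that range. Of those genes 9.33% were 1.5-fold lower and 9.12% higher, beside 2 and 1 of the 13 mitochondrial enzymes. Within that range of signal the compartments thus differed by -0.12 in place of -0.44. Signals were still not matched, with a median of 165 for these cytosolic enzymes and 104 for the mitochondrial ones. Loess on signal, which removes the trend over all genes, left a difference of -0.23, and quantile normalization left -0.25. How much of the difference follows compartment and how much follows signal was not tested.

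**Figure D2:**
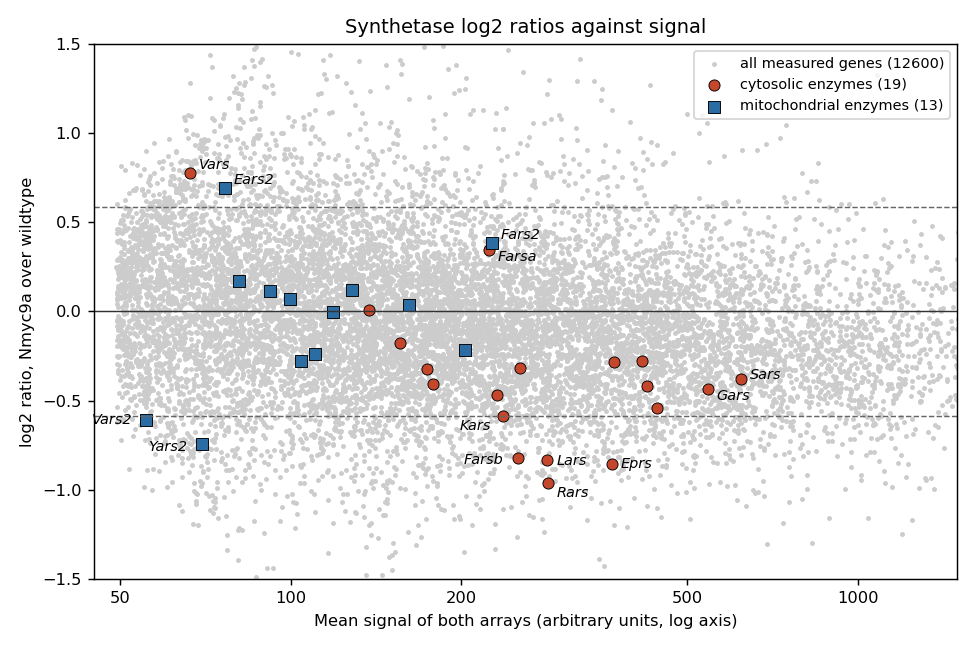
Log2 ratio of the array labelled Nmyc9a over wildtype against the mean signal of both arrays (log axis) for measured genes (grey), cytosolic enzymes (red circles) and mitochondrial enzymes (blue squares), with dashed lines at 1.5-fold and genes beyond the axes not drawn. The cytosolic enzymes above the mitochondrial signal range all lie below 0, while the 6 inside that range lie on both sides; quantile normalization or loess put the mitochondrial median below 0.

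Promoter sequences bear on the known regulators of these genes, so 4 windows with an established motif before the start site are shown. RefSeq promoter windows of GRCm38.p6, 250 bases before to 50 after a transcript start, were given for 27 of the 36 genes. Cars, Hars, Lars, Nars, Rars, Vars, Wars, Hars2 and Pars2 were not among them. Each window was searched on both strands for CACGTG, the E-box that Myc proteins bind with Max, and for TGATGCAA, a core of the Atf4 response element, read TTGCATCA on the other strand. The E-box was found in 5 of 27 synthetase genes (18.5%): Aars, Iars, Tars, Farsb and Ears2, while 7.15% of all 32851 windows held it. The Atf4 core was found in Aars, Iars, Tars and Yars, 4 of 27 (14.8%) against 0.895% of all windows. All 4 are cytosolic, and none of 14 mitochondrial genes held it. The motifs do not overlap each other. The 250 bases before the start are printed 5′ to 3′ on the gene's strand, with matches in capitals.

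Aars, chr8:111033592-111033841, plus strand: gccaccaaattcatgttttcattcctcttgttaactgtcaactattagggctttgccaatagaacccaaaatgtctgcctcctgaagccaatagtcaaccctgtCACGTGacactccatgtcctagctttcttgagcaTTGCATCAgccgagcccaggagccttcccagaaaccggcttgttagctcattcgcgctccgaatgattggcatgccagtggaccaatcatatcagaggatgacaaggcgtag
Iars, chr13:49681880-49682129, plus strand: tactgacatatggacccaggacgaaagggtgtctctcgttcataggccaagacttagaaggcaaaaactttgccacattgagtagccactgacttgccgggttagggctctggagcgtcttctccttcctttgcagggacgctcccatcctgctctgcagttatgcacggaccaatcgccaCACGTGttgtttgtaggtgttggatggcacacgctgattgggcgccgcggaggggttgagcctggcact
Tars, chr15:11399659-11399908, minus strand: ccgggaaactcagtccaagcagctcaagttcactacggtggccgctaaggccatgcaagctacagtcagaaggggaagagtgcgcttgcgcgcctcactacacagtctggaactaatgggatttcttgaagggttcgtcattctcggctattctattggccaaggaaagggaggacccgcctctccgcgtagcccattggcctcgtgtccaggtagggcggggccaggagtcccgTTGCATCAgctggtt
Farsb, chr1:78488898-78489147, minus strand: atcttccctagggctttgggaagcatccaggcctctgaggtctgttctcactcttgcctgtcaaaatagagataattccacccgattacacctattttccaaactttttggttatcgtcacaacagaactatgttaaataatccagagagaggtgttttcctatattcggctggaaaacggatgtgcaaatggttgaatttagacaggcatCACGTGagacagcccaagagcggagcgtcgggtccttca

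In these windows the E-box starts at base -146 in Aars, -69 in Iars and -39 in Farsb, and the Atf4 core at -112 in Aars and -15 in Tars, counted back from the start site. The E-boxes of Tars and Ears2 and the Atf4 cores of Iars and Yars lie just after the start site and so outside the printed stretch. The start site is that of the RefSeq window: it is the outer end of the annotated gene for Iars, Tars and Farsb, but lies inside the annotated gene for Aars, and it was the outer end for 13 of the 28 windows of synthetase genes. Ratios of the genes with an E-box ran from -0.82 for Farsb to 0.69 for Ears2. Those with an Atf4 core ran from -0.47 for Iars to 0.01 for Yars. Of the 5 genes with an E-box 4 were below 0, and 1 of them, Farsb, was 1.5-fold lower. Among all measured genes 58.8% were below 0 and 9.71% were 1.5-fold lower. The 4 are the cytosolic ones, and 16 of all 19 measured cytosolic enzymes were below 0. No window was searched for Rars and Lars, and the windows of Eprs and Kars held neither motif. A match is a description of the letters in the window.

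Of 47 measured genes of tRNA processing, modification and export, 5 (10.6%) were 1.5-fold lower and 3 (6.38%) higher, with a median of -0.20. Over all measured genes the shares were 9.71% and 6.32%, so these counts lay near the background. The list median was -0.31 after quantile normalization and -0.27 after loess, beside -0.33 and -0.29 for the cytosolic enzymes. Elp4, a subunit of the Elongator complex that modifies the wobble base, stood lowest at -0.87, a bound since its second signal of 48.9 lay below the floor. Tsen15, a subunit of the tRNA splicing endonuclease, stood at -0.77. The methyltransferase genes Trmt6 and Trmt11 stood at 0.63, and Trmt12, whose wildtype signal of 26.0 lay below the floor, at 0.63 or higher.

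Genes for proofreading and indirect charging had a median of -0.13, with 1 of 9 (11.1%) 1.5-fold lower and 2 (22.2%) higher. At that size 9.71% of all measured genes were lower and 6.32% higher. Aarsd1, which clears mischarged alanine tRNA, read 157 and 75.5 (2.08-fold lower), with Qrsl1 at -0.44. Gatb, which like Qrsl1 is a subunit of the mitochondrial glutamyl-tRNA amidotransferase, stood at 0.66, and Dtd2 at 0.63. Mitochondrial translation factors had none of 10 past 1.5-fold, with a median of -0.43, lower than that of the mitochondrial synthetases. That median was close to the -0.41 of the cytosolic synthetases. It was -0.48 after quantile normalization and -0.43 after loess, beside -0.33 and -0.29 for the cytosolic enzymes. The elongation factor gene Gfm1 read 258 and 185 (-0.47) and the recycling factor gene Mrrf stood at -0.47, whereas the tRNA modification genes Gtpbp3 and Mto1 stood at 0.57 and 0.56.

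**Figure D3:**
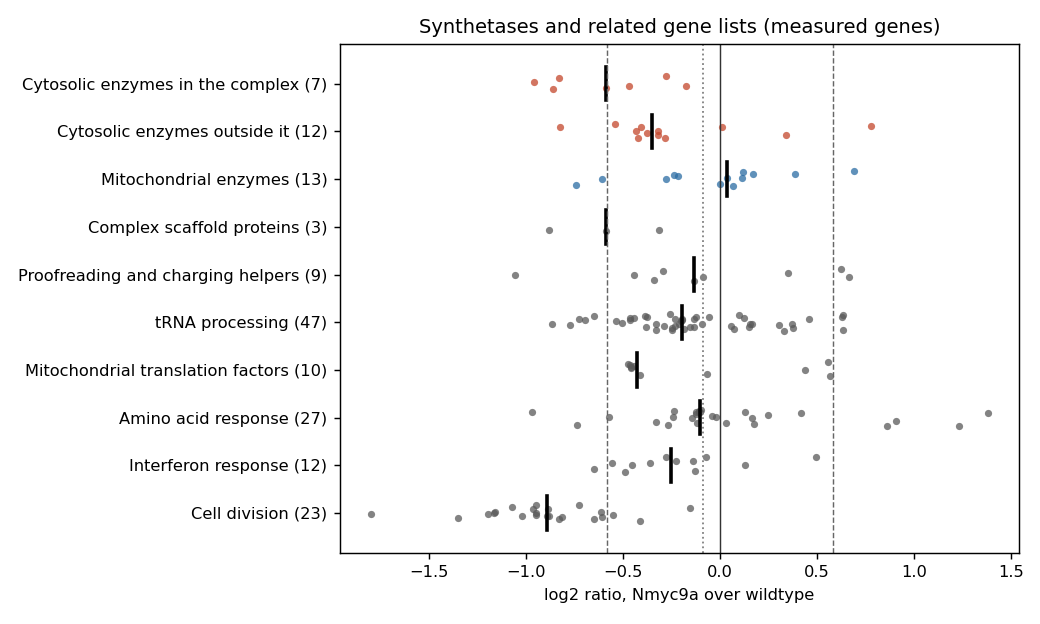
Log2 ratio of the array labelled Nmyc9a over wildtype for each measured gene of the synthetase groups and related lists (points, shifted at random up and down), with list medians as black bars, the median of all measured genes dotted and 1.5-fold dashed. Complex enzymes (-0.59) and scaffold proteins (-0.59) have the lowest medians apart from cell division genes (-0.89), while the amino acid response lies near the median of all genes (-0.11) and, after loess, at 0.0090. The complex median is the value of Kars. With the median of the probe sets of each gene it is that of Eprs, -0.44.

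The amino acid response, which controls many synthetases, had a median close to that of all genes. Of 27 measured genes other than synthetases 2 (7.41%) were 1.5-fold lower and 4 (14.8%) higher, beside 9.71% and 6.32% of all measured genes. The list median was -0.11, and 0.0090 after loess. Atf4 itself read 351 and 329 (-0.10), and Asns, asparagine synthetase and a standard Atf4 target, read 176 and 174. Slc7a5, a transporter of large neutral amino acids, read 81.7 and 213 (2.61-fold higher). Eif2ak4, the kinase Gcn2 that senses uncharged tRNA, read 76.4 and 179 (2.35-fold higher). The lowest were Psat1 of serine synthesis, at 724.5 and 370 (1.96-fold lower), and Ddit3 at -0.74, a bound since its second signal lay below the floor. Interferon response genes, listed because Wars responds to interferon, had 1 of 12 (8.33%) lower and none higher (median -0.25). Ifit1 and Tap1 stood at -0.65 and -0.56, and Stat2 and Irf9 at 0.50 and 0.13.

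Other values also differed between the arrays, some of them by little, and their part in these results was not tested. At 1.5-fold, 9.71% of all measured genes were lower and 6.32% higher. Cell division genes were lower, with 20 of 23 measured genes at least 1.5-fold lower and a summed signal of 9026 and 4815. Liver markers were higher, with 6 of 8 measured genes past 1.5-fold and a summed signal of 446 and 1367. Fgb and Ambp were below the floor on both arrays, and Ahsg (9.1 and 82.4), below it in wildtype only, was not counted as measured. Skeletal muscle markers had 2 of 5 higher (435 and 819 summed), and Myh8 and Myog were below the floor on both arrays. Tnnc2 (5.3 and 78.7), Tnnt3 (23.5 and 52.5) and Myh3 (6.1 and 55.2), below it in wildtype only, were not counted as measured. With the floor at the 20th percentile the liver median rose from 1.01 to 1.52 and the skeletal muscle median from 0.51 to 0.93. Heart muscle markers had 2 of 9 higher (3880 and 3854). Erythroid markers had 2 of 8 lower (6023 and 4586), leukocyte markers 1 of 9 lower (7761 and 7651) and distal epithelial markers 1 of 9 lower (31610 and 29964). Itgam, Cd3e and Elane among the leukocyte genes and Epb42 among the erythroid ones were below the floor. As a sign of RNA integrity, the ratio of 3′ to 5′ control probe sets was 0.770 and 0.683 for Gapdh and 1.18 and 1.202 for Actb.

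**Figure D4:**
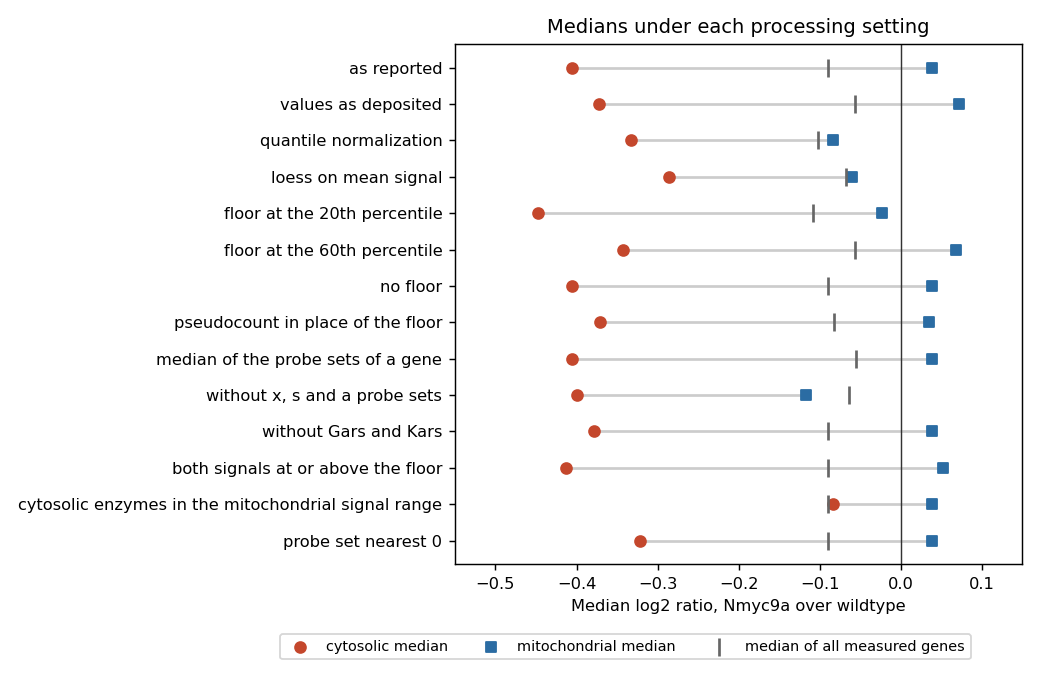
Median log2 ratio of the cytosolic (red circles) and mitochondrial enzymes (blue squares) and of all measured genes (grey ticks) under each processing setting that could move them. The cytosolic median lies left of the mitochondrial one in all 14 settings shown, by -0.12 in the mitochondrial signal range and by -0.23 to -0.47 elsewhere, while the mitochondrial median lies on either side of 0.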

How the data were processed

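The submitters' data are 1 signal intensity per probe set and array, as deposited. RNA was purified by Trizol and then an RNeasy column and carried a biotin label, per the labels. The sources used here name no scanner software, scaling or detection call. The deposited intensities had a trimmed mean of 150 on both arrays (2% off each end).

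The 64 control probe sets were set aside. The array labelled Nmyc9a was scaled by 0.977, which set the median log2 ratio to 0 over probe sets whose mean reached the floor. Signals under 49.3 were raised to it before log2, so such ratios are bounds. Names came from the platform's probe annotation, updated to GRCm38.p6 symbols for 34741 of 34945 with 1 symbol; 932 with several and 9160 with none were not used. The brightest probe set stood for each of 18193 genes. With 1 array a group, genes were counted by size. Every member is named, and from each pathway list the 2 highest and 2 lowest; Sftpc, Atf4 and Asns fall outside that rule and were chosen with values in view. The members and lists were chosen with earlier results of these data known. The scripts were tested on simulated data. Python 3.11.15, pandas 2.3.3 and statsmodels 0.14.6 (loess span 0.3) were used.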

Additional observations from a re-analysis of the deposited data

How the results depend on the processing

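With 1 array a group no replicate could be left out, and No paired analysis was possible because each group holds 1 sample. Values without a test were called moved when a median shifted by over 0.1 or a single gene by over 0.40 (log2), or a count by over 1.5 times. The cytosolic median stayed below 0 and below the mitochondrial median in all alternatives run, the planned ones and the 3 chosen after seeing the data. The difference of -0.44 became -0.25 after quantile normalization, -0.23 after loess, -0.28 without x, s and a probe sets and -0.12 for cytosolic enzymes in the mitochondrial signal range (added after seeing the data). The mitochondrial median of 0.04 turned to -0.084 (quantile), -0.060 (loess), -0.12 (without those probe sets) and -0.024 (floor at the 20th percentile). The cytosolic median was -0.29 after loess and -0.083 in the mitochondrial signal range, where the median of all members was 0.010.

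The 7 lower members became 4 with the floor at the 60th percentile or without x, s and a probe sets, 2 in the mitochondrial signal range, 0 at 2-fold and 13 at a smaller size rule, a log2 ratio of 0.32. The 5 lower cytosolic enzymes became 3 without those probe sets, 0 in that range or at 2-fold and 11 at the smaller rule. The 2 lower mitochondrial enzymes became 1 without those probe sets or with both signals above the floor (added), and 0 at the 60th percentile or 2-fold. The 2 higher members became 1 under quantile normalization, loess, a pseudocount of 16, the median of probe sets, no x, s and a probe sets, both signals above the floor or the probe set nearest 0 (added), 0 at the 60th percentile or 2-fold and 4 at the smaller rule. Fewer genes are measured at the higher floor; other causes were not tested. Rars and Lars stayed 1.5-fold lower in 11 of 11 alternatives of scaling, floor and probe set. Farsb stayed so in 10 of 10, Eprs in 8 of 11 and Kars in 7 of 11. Rars, Lars and Kars had 1 probe set each and both signals above the floor. Alternatives of probe set, without a floor or with both signals above it therefore could not move them. Kars fell short as deposited (-0.55), after loess (-0.54), at the 60th percentile (-0.52) and with a pseudocount (-0.55). Without x, s and a probe sets Eprs stood at -0.06, and no measured reading of Farsb was left. The heart muscle median of -0.015 became 0.019 as deposited, 0.045 after quantile normalization, 0.088 after loess and 0.15 without those probe sets. The tRNA processing median of -0.20 became -0.31 after quantile normalization, and the scaffold median of -0.59 became -0.45 after loess. The amino acid response median became 0.0090 after loess, and the distal epithelium median of 0.028 became -0.014 with the floor at the 20th percentile.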

Other observations

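Among the amino acid response genes, 4 of 27 were at least 1.5-fold higher on the array labelled Nmyc9a, a size that 6.32% of all measured genes reached, while 17 of the 27 lay below 0. Besides Slc7a5 and Eif2ak4, Ppp1r15a, which restores translation after the eIF2 kinases have acted, read 103.5 and 194 (1.88-fold higher) and Gpt2, a mitochondrial alanine aminotransferase, read 52.7 and 95.6 (1.81-fold higher). Slc3a2, the heavy chain that pairs with Slc7a5, read 340 and 383 (0.17), and Chac1, Trib3 and Sesn2, other Atf4 targets, stood at 0.17, 0.25 and 0.42, whereas Aldh18a1 of proline synthesis stood at -0.57. These genes were chosen after their values were seen.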
